A study of Homo sapiens with 16 samples.

Results

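The 4 HOX clusters, HOXA, HOXB, HOXC and HOXD, were examined for chromatin accessibility in rhabdomyosarcoma cells before and after treatment with a degrader of the PAX3-FOXO1 fusion protein. Members were all counted regions that overlapped a window around each cluster by at least 1 base. The windows, on the hg19 assembly, were chr7:27120000-27260000 for HOXA, chr17:46600000-46820000 for HOXB, chr12:54320000-54460000 for HOXC and chr2:176940000-177060000 for HOXD. They held 93 of the 97793 regions of the series, 30 of 40844 in the experiment named 6211 and 63 of 56949 in the experiment named 6086. Every one of the 93 passed the filter on low counts, so none was left out of the tests. The windows were set by coordinates and not by measured values, though earlier results of these data were known when they were chosen.

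Rh30 is an established line from an alveolar rhabdomyosarcoma, a childhood tumour with features of skeletal muscle. All cells carried the PAX3-FOXO1 fusion joined to FKBP, a tag that the compound dTAG47 links to a ubiquitin ligase so that the tagged protein is degraded. Controls were the same tagged cells in DMSO, the solvent, for which the labels give no duration, and treated cells received 500 nM dTAG47. Experiment 6211 sampled 0.5, 1 and 2 h of dTAG47 and experiment 6086 sampled 2, 4 and 24 h, each against its own DMSO group. Each group had 2 ATAC-seq libraries, 16 in all, in which a transposase marks open DNA. Untagged cells given dTAG47 and the amount of fusion protein left in each sample were not analysed here, so loss of the fusion and any other action of the compound cannot be told apart. Whether the 2 libraries of a group came from separate cultures is not in the labels, and the p-values therefore cover library-to-library spread, which may be technical. Libraries held 9934147 to 18275976 counted reads in experiment 6211 and 18038062 to 31308682 in experiment 6086. The tissue label was not checked against muscle marker genes, because no gene annotation on hg19 was used here.

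HOX genes encode homeodomain transcription factors that give cells their position along the body axis, and their order along each cluster mirrors the order in which they are used in the embryo. The clusters are held closed by Polycomb repressors and opened by trithorax-group activators, and cells of different body origin keep different parts of them open. In the limb, HOX factors act in the muscle precursors in which PAX3, the DNA-binding part of the fusion, is also active. PAX3 binds DNA through a paired domain and a homeodomain.

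Sequences were available for promoters on another assembly (RefSeq, GRCh38.p14), not for the counted regions, so no promoter could be placed on a region. Of the 39 HOX genes, 20 had at least 1 promoter there, with 27 entries of 300 bases (250 before and 50 after the annotated start). They covered the clusters unevenly, with 9 of 11 HOXA genes, 1 of 10 HOXB genes, 2 of 9 HOXC genes and 8 of 9 HOXD genes. Each entry was counted singly, and 16 of the 27 belong to HOXA genes, several of them to HOXA3 alone. These promoters held a median of 22 CG dinucleotides, against 14 over all 35116 promoters, and 20 of the 27 lay above that median. The letters GTCACG, part of the sequence that paired domains prefer, were found on either strand in 5 of 27 HOX entries (18.5%) and in 9.02% of all promoters. Those 5 belong to HOXA7, HOXA9, HOXD8, HOXD10 and HOXD11. The letters TAATTA, a homeodomain core that reads the same on both strands, were found in 2 HOX entries (7.41%) and in 4.84% of all promoters. HOXD11 and HOXD3 are the genes concerned. HOXD was picked for display because it had the largest accessibility change described below. Its promoters with a match were those of HOXD3, HOXD8, HOXD10 and HOXD11. HOXD10 and HOXD11 are shown as examples, and neither was tied to a counted region or to an accessibility change. Each sequence is the 250 bases before the start, on the plus strand, 5′ to 3′, with matches to either set of letters in capitals.
HOXD10: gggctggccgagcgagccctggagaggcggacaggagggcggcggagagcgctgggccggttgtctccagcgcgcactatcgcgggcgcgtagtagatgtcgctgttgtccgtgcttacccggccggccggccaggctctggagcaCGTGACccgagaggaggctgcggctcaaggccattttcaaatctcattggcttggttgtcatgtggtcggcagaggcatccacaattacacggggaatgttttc
HOXD11: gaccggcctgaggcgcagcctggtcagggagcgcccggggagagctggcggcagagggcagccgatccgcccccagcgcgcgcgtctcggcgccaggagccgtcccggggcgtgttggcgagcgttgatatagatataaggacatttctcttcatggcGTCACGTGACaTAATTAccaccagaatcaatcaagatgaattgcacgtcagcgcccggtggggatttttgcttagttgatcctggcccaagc
In HOXD11 the GTCACG letters occur on both strands as 2 overlapping matches, directly followed by 1 base and then TAATTA. Such matches describe letters in a promoter and say nothing on whether a factor binds there.

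The counted open regions, a set shared by all libraries of an experiment, were spread unevenly over the clusters. In experiment 6086 the HOXA window held 18 regions, HOXB 26, HOXC 14 and HOXD 5, which is 12.9, 11.8, 10.0 and 4.17 regions per 100 kb. They covered 4.75% of the HOXA window, 3.47% of HOXB, 3.48% of HOXC and 1.51% of HOXD. In experiment 6211 the counts were 8, 12, 7 and 3, so HOXD held the fewest regions in both. The longest stretch between neighbouring regions of a window was in HOXB, 49.8 kb in experiment 6086 from position 46756155 to 46805977, toward the HOXB13 end. In the HOXD window the last 54.3 kb, at the HOXD1 end, held no region of experiment 6086, and the last 54.4 kb held none of experiment 6211. HOXC had a gap of 35.8 kb in experiment 6086 between its HOXC13 end and the rest.

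Most HOX regions were less open than the middle of all counted regions. Levels are given as CPM, reads scaled to a common library total in regions, scaled by TMM, a normalisation to the bulk of regions, and divided by region width in kb. The median level in DMSO was 28.5 CPM per kb over the 63 HOX regions of experiment 6086, against 33.6 over all regions, and 19 of the 63 lay above the latter. In experiment 6211 the medians were 36.9 and 45.1 CPM per kb, and 8 of 30 lay above. Cluster medians in experiment 6086 lay close together, at 28.5 CPM per kb in HOXA, 31.0 in HOXB, 26.7 in HOXC and 30.5 in HOXD, while single regions ranged from 8.24 to 52.9. HOX regions of experiment 6086 were also narrow, with a median width of 227 bp (107 to 875 bp) against 320 bp over all regions. They held a median of 175 reads per library, against 257.8 over all regions.

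**Figure D1:**
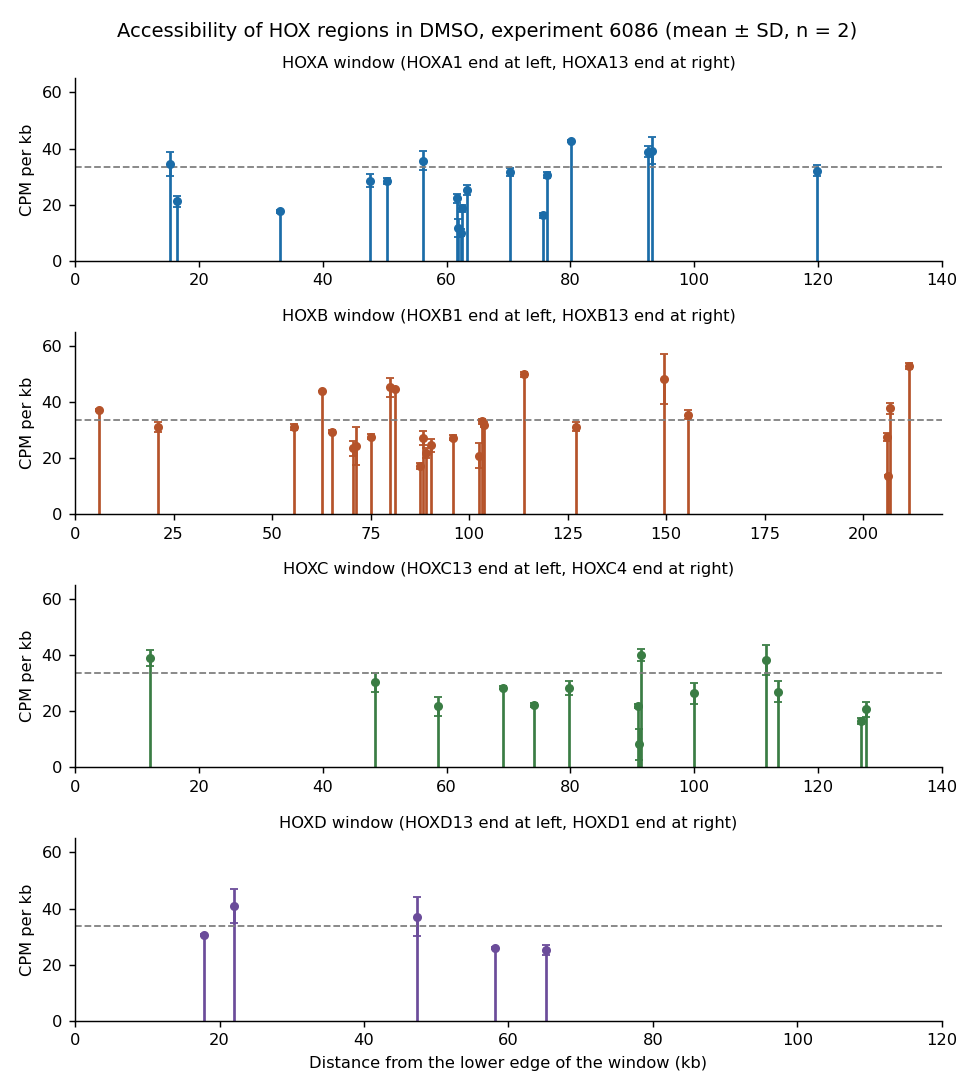
Accessibility in DMSO (CPM per kb of region, mean ± SD of 2 libraries, experiment 6086) of every HOX region, by distance in kb from the lower-coordinate edge of its window. The dashed line is the median of all regions, 33.6 CPM per kb. Regions in the HOXD window end 54.3 kb before its upper edge, and the HOXB region nearest the HOXB13 end is the highest of the 63.

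The most open HOX region was the same place in both experiments, near the HOXB13 end of HOXB. At chr17:46811690-46812325 the DMSO libraries of experiment 6086 gave 33.1 and 34.1 CPM, a level of 52.9 ± 1.16 CPM per kb (SD, n = 2), at percentile 88.4 of all regions. Its counterpart in experiment 6211, chr17:46811888-46812288, reached 101.3 ± 1.49 CPM per kb, at percentile 86.9. The next HOXB region, chr17:46713897-46714246, stood at 49.8 ± 0.798 CPM per kb in experiment 6086. Levels cannot be compared between experiments, because 97.8% of the regions of experiment 6211 were 401 bp wide and those of experiment 6086 varied in width.

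Each other cluster had its own leading region. In HOXA it was chr7:27200073-27200902, at 42.7 ± 0.245 CPM per kb, with chr7:27213214-27213347 next at 39.3 ± 4.71. In HOXC it was chr12:54411413-54412287, at 40.1 ± 2.29 CPM per kb, with chr12:54332144-54332604 at the HOXC13 end next at 39.0 ± 2.71. In HOXD it was chr2:176962034-176962653, at 41.0 ± 6.11 CPM per kb, with chr2:176987377-176987544 next at 37.1 ± 6.99. Within each of HOXA, HOXC and HOXD the leading pair differed by less than the larger SD of the pair. In experiment 6211 the overlapping regions led each of these 3 clusters as well, at 81.7 CPM per kb for HOXA, 86.4 for HOXC and 44.2 for HOXD.

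Up to 2 h of dTAG47, no HOX region changed past an adjusted p of 0.05 (edgeR quasi-likelihood test, Benjamini-Hochberg over all regions of the experiment). In experiment 6211 the count was 0 of 30 at 0.5 h, where 0.00735% of all regions passed, 0 of 30 at 1 h, where 2.69% passed, and 0 of 30 at 2 h, where 6.89% passed. At an unadjusted p under 0.05, 2, 2 and 6 HOX regions passed (6.67%, 6.67% and 20.0%), where 6.67%, 16.4% and 20.3% of all regions did. DESeq2 called none of the HOX regions at these times. In experiment 6086 at 2 h the count was again 0 of 63, where 5.22% of all regions passed. Before adjustment 8 HOX regions (12.7%) had p under 0.05, as did 16.4% of all regions, and no HOX region was called by DESeq2. The median log2 fold change of the HOX regions was -0.04, -0.01 and 0.02 at 0.5, 1 and 2 h in experiment 6211 and -0.01 at 2 h in experiment 6086, and the medians over all regions lay between -0.0013 and 0.0075.

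Single HOX regions ranged from -0.34 to 0.43 in log2 fold change at 2 h in experiment 6211 and from -0.34 to 0.45 in experiment 6086. The region with the largest change at 2 h in experiment 6211 was chr12:54430613-54431013 in HOXC. It had 9.91 and 9.60 CPM in DMSO, 10.4 and 11.4 at 0.5 h, 9.96 and 11.8 at 1 h, and 12.3 and 14.1 at 2 h. Both 2 h libraries lay above all the others, and the log2 fold change of 0.43 (SE 0.15) had an adjusted p of 0.0931 by edgeR. The region was picked for its change in these same libraries, so that separation adds no support. No region of experiment 6086 overlapped it, so its 2 h change could not be compared there. The other clusters' largest changes at that time were -0.28 at chr7:27183201-27183601 in HOXA (edgeR adjusted p = 0.293), -0.34 at chr17:46749229-46749629 in HOXB (0.228) and -0.13 at chr2:177005154-177005554 in HOXD (0.634).

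Regions measured in both experiments allowed the 2 h effect to be compared directly. A 50% reciprocal overlap matched 23 HOX regions one to one, and none of them differed between experiments in the edgeR interaction test (0 of 23, against 0.0% of the 29639 matched regions, with 2 of 23 HOX regions and 5.19% of all matched regions at an unadjusted p under 0.05). The differences ranged from -0.35 to 0.56 on the log2 scale. The 2 effects had the same sign in 11 of the 23 regions. A region in HOXC, named after its values were seen, had similar values in both: chr12:54368361-54368703 gave 9.58 and 11.2 CPM in DMSO and 12.2 and 13.4 at 2 h in experiment 6086. Its log2 fold change was 0.28 (edgeR adjusted p = 0.108), and that of its counterpart in experiment 6211 was 0.35 (adjusted p = 0.134). The widest difference was at chr7:27183281-27183624 in HOXA, which stood at 0.26 in experiment 6086 and at -0.28 in experiment 6211 (difference 0.56, 95% interval 0.15 to 0.96, edgeR adjusted p = 0.902).

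At 4 h of dTAG47, 1 of 63 HOX regions passed, and it was higher, where 7.19% of all regions passed, 5.44% lower and 1.75% higher. At an unadjusted p under 0.05 the HOX count was 3 (4.76%), and the share of all regions was 17.7%. It was chr12:54446856-54447671, at the HOXC4 end of HOXC, with 13.0 and 14.2 CPM in DMSO, 16.3 and 15.3 at 2 h, 17.0 and 16.5 at 4 h, and 14.2 and 13.3 at 24 h. The 2 h and 4 h libraries lay above the DMSO libraries, and the 24 h libraries lay within the DMSO range. The region rose at 4 h by 0.29 in log2 (SE 0.09, edgeR adjusted p = 0.0393) and stood at 0.00 at 24 h. The call was lost under 6 of 12 alternatives, among them DESeq2 (adjusted p = 0.296) and leaving out DMSO library A (0.225), 4 h library A (0.205) or 4 h library B (0.146).

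At 24 h, when 32.2% of all regions had changed (18.6% lower and 13.6% higher), 2 of 63 HOX regions passed, 1 lower and 1 higher. At an unadjusted p under 0.05, 8 HOX regions (12.7%) and 40.1% of all regions passed. Their median log2 fold change was 0.03, with a median absolute change of 0.09, against -0.0031 and 0.16 over all regions. The median standard error of a HOX region was 0.12, against 0.10 over all regions. Log2 fold changes of all regions had a 5th percentile of -0.68 and a 95th of 0.49. No HOX region lay below that span and 1 lay above it. The 95% interval of the change stayed within 1.5-fold in either direction for 58 of 63 HOX regions (92.1%) and for 75.9% of all regions. For the 5 remaining HOX regions a change of 1.5-fold was within the interval. The difference between HOX and other regions was not tested.

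**Figure D2:**
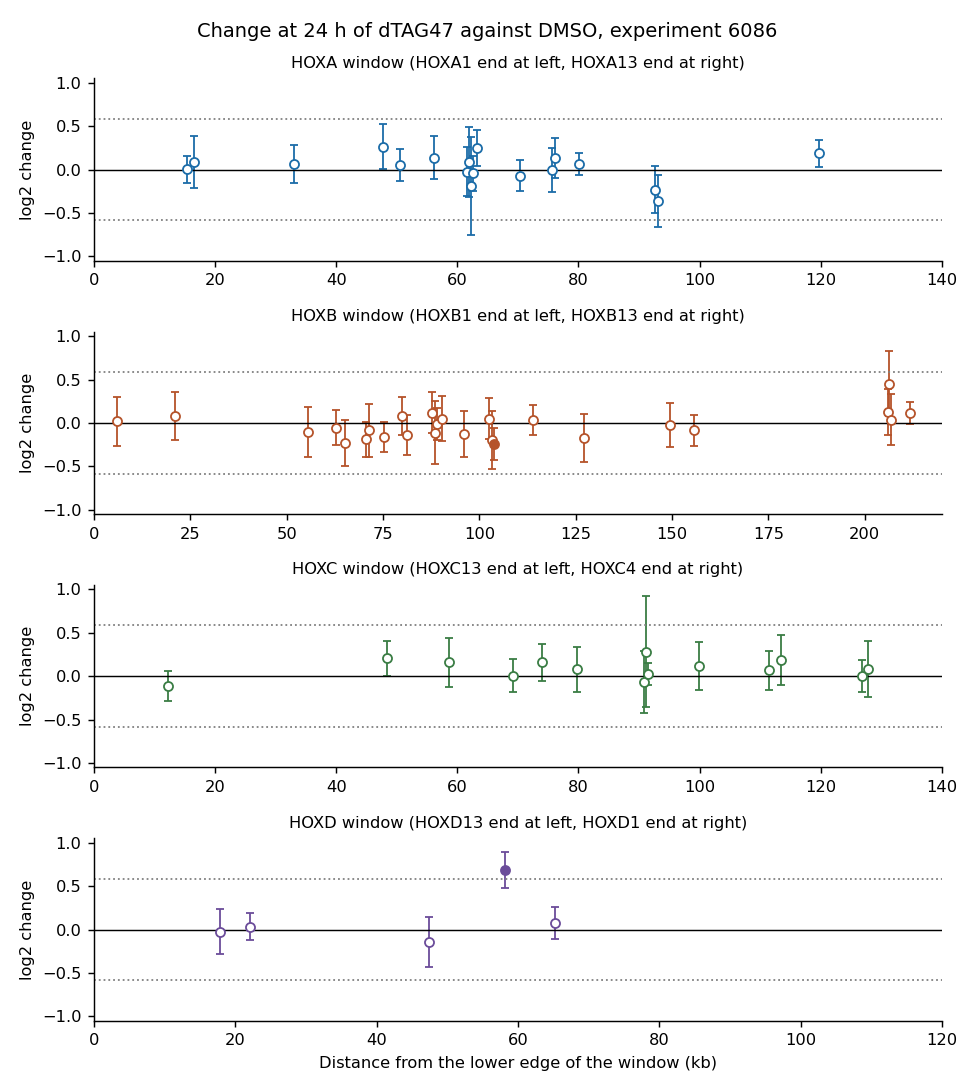
Log2 fold change at 24 h of dTAG47 against DMSO (experiment 6086) with its 95% interval for every HOX region, by distance in kb from the lower-coordinate edge of its window. Filled points passed an adjusted p of 0.05 and dotted lines mark 1.5-fold. A HOXD region at 58.1 kb stands at 0.69 between neighbours near 0, and a HOXB region at -0.24 is the other filled point.

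The largest change in any HOX cluster was a gain inside HOXD. The region chr2:176998126-176998419, 294 bp wide and 58.1 kb from the HOXD13 edge of the window, had 7.51 and 7.67 CPM in DMSO, 6.89 and 6.71 at 2 h, 7.76 and 8.23 at 4 h, and 11.4 and 13.1 at 24 h. Both 24 h libraries lay above all 6 others, and those at 2 h were the lowest. The mean went from 7.59 ± 0.114 CPM in DMSO to 12.2 ± 1.19 at 24 h (SD, n = 2). The region thus rose by 0.69 in log2 (SE 0.10, 95% interval 0.47 to 0.90, edgeR adjusted p = 2.38e-06), a 1.61-fold gain. At 2 h its log2 fold change was -0.16 (adjusted p = 0.571) and at 4 h it was 0.08 (adjusted p = 0.819), neither past the threshold. The direct test of 24 h against 2 h gave 0.85 (SE 0.10, edgeR adjusted p = 8.02e-08), or 1.80-fold.

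This gain was the one HOX call that stood under each of the 12 alternatives run for it, with log2 fold changes of 0.58 to 0.78. The authors' deposited table gave it a log2 fold change of 0.69 and an adjusted p of 0.00017. The deposited tables called no other HOX region in any of the 6 comparisons with DMSO. For this region the deposited values equal those of the DESeq2 alternative on the same counts, so they are not separate evidence. Among the 7742 regions that rose at 24 h it was above the median of 0.42, and 1128 rose more. In experiment 6211, which ended at 2 h, the overlapping region chr2:176998101-176998501 had 11.6 and 12.3 CPM in DMSO, 13.0 and 11.1 at 0.5 h, 10.6 and 10.4 at 1 h, and 11.3 and 10.8 at 2 h. Its log2 fold changes of 0.01, -0.19 and -0.11 did not pass.

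**Figure D3:**
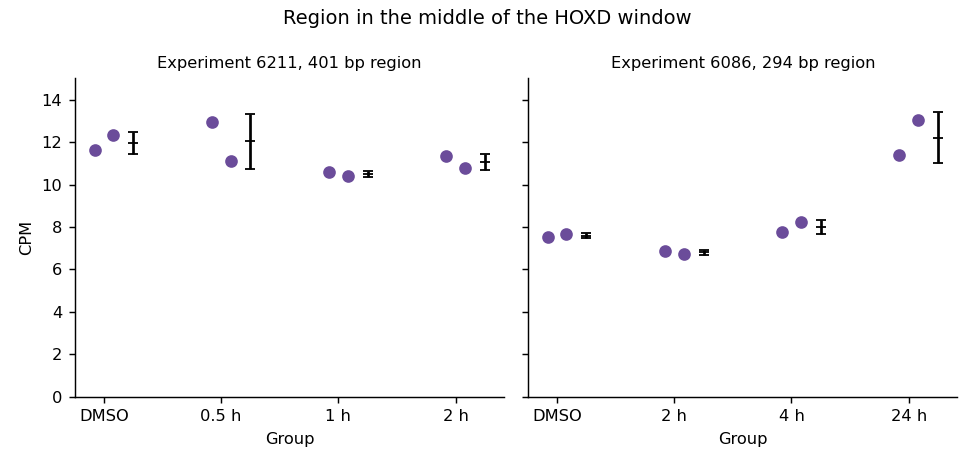
Accessibility (CPM, not divided by width) of the HOXD region that rose at 24 h, in experiment 6086 on the right and at the overlapping 401 bp region of experiment 6211 on the left. Points are libraries and bars are the mean ± SD of 2. The 24 h libraries, at 11.4 and 13.1 CPM, lie above the other 6 of experiment 6086.

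No other HOXD region passed. The remaining 4 had log2 fold changes of -0.02, 0.03, -0.14 and 0.07 at 24 h. The nearest of them on the HOXD1 side, chr2:177005220-177005746, had 12.7 and 14.0 CPM in DMSO and 13.7 and 14.5 at 24 h, with overlapping groups. On the HOXD13 side, chr2:176987377-176987544 had 7.06 and 5.40 CPM in DMSO and 5.95 and 5.13 at 24 h, also overlapping. Which HOXD gene lies closest to the region that rose was not determined here.

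The region that fell at 24 h was in the middle of HOXB. At chr17:46703754-46704278 the libraries gave 17.1 and 16.4 CPM in DMSO, 20.1 and 16.2 at 2 h, 16.1 and 17.3 at 4 h, and 13.8 and 14.4 at 24 h. The 24 h libraries were the lowest of the 8. The region fell by 0.24 in log2 (SE 0.09, edgeR adjusted p = 0.0428), and the call was lost under 8 of 12 alternatives, including DESeq2 (adjusted p = 0.199). It was also lost when DMSO library A (adjusted p = 0.125), DMSO library B (0.0735), 24 h library A (0.181) or 24 h library B (0.0844) was left out. Its counterpart in experiment 6211, chr17:46703824-46704224, stood at 0.33, 0.27 and 0.30 in log2 at 0.5, 1 and 2 h, none past the threshold.

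The largest remaining values at 24 h, in HOXA, HOXB and HOXC, did not pass. In HOXA, chr7:27213214-27213347 had 4.82 and 5.71 CPM in DMSO and 4.77 and 3.55 at 24 h, a log2 fold change of -0.36 (edgeR adjusted p = 0.0554). In HOXB, chr17:46806396-46806549 had 2.13 and 2.11 CPM in DMSO and 2.96 and 2.85 at 24 h, a log2 fold change of 0.45 (adjusted p = 0.0593). That region had 3.07 and 2.70 CPM already at 2 h. In HOXC, chr12:54411129-54411308 had 2.18 and 0.782 CPM in DMSO and 2.10 and 1.24 at 24 h, a log2 fold change of 0.28 with an SE of 0.31 (adjusted p = 0.546). The DMSO and 24 h libraries overlapped in the HOXC region and did not overlap in the HOXA and HOXB regions. These regions, like the called ones above, were chosen by their values in these same libraries, so such separation adds no support.

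**Figure D4:**
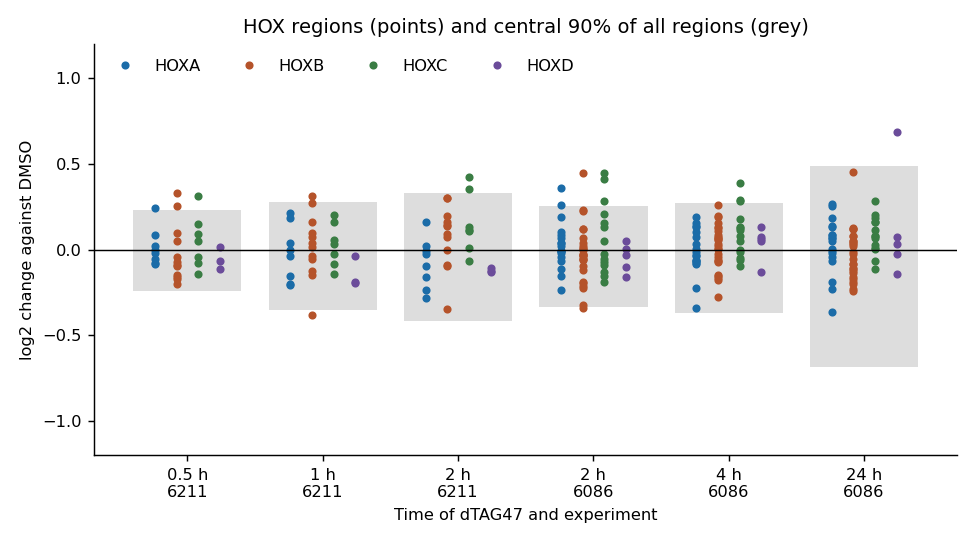
Log2 fold change against DMSO of every HOX region (points, coloured by cluster) in each comparison, with the span from the 5th to the 95th percentile of all regions in grey. The grey span is widest at 24 h, from -0.68 to 0.49, and the HOXD region at 0.69 is the single HOX point outside it there. In experiment 6211, 4 of 30 points lay above the span and 0 below at 0.5 h, 1 and 1 at 1 h, and 2 and 0 at 2 h. In experiment 6086, 6 of 63 points lay above and 1 below at 2 h, and 3 and 0 at 4 h.

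Within experiment 6086, 24 h was also compared with 2 h directly. Of the 63 HOX regions 4 passed, 1 lower and 3 higher, where 30.4% of all regions passed, 17.6% lower and 12.8% higher. At an unadjusted p under 0.05 the HOX count was 10 (15.9%), and the share of all regions was 39.1%. The HOXD region and the HOXB region above were among them, at 0.85 and -0.36 in log2. The HOXB value rested on 2 h library A, and without it was -0.19 (adjusted p = 0.211). The remaining 2 were the leading regions of HOXA and HOXC. The HOXA region, chr7:27200073-27200902, had 33.0 and 32.5 CPM at 2 h and 36.8 and 37.4 at 24 h, with 35.6 and 35.3 in DMSO. The HOXC region, chr12:54411413-54412287, had 32.4 and 30.9 CPM at 2 h and 36.2 and 35.6 at 24 h, with 33.7 and 36.5 in DMSO. Each rose by 0.18 in log2 (edgeR adjusted p = 0.0228 and 0.027), from a 2 h level below DMSO. Each call was lost in DESeq2 (adjusted p = 0.139 and 0.152) and on leaving out any 1 of the 4 libraries compared, 2 h libraries A and B and 24 h libraries A and B, with adjusted p up to 0.134 for HOXA and 0.205 for HOXC. In experiment 6211, 2 h against 0.5 h gave 0 of 30 HOX regions, where 1.42% of all regions passed. Before adjustment 3 HOX regions (10.0%) had p under 0.05, as did 12.2% of all regions, and no HOX region was called by DESeq2.

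Summed over a whole cluster, mean accessibility in treated groups differed from DMSO by at most 9.38%, the value of HOXC at 2 h in experiment 6211 (10.6% with library size only). In experiment 6086 the 4 clusters together gave 627.6 ± 9.22 CPM in DMSO, 628.1 ± 1.43 at 2 h, 644.2 ± 13.1 at 4 h and 640.7 ± 3.20 at 24 h (SD, n = 2). HOXA went from 189.5 ± 7.76 in DMSO to 196.9 ± 1.70 at 24 h, HOXC from 137.0 ± 4.02 to 142.2 ± 0.832 and HOXD from 58.9 ± 3.96 to 63.9 ± 0.196. Most of the HOXD difference lay in the 1 region that rose, which went from 7.59 to 12.2 CPM. HOXB went from 242.2 ± 1.40 to 237.7 ± 5.54. The 24 h libraries did not overlap those in DMSO in HOXA, HOXC, HOXD and the sum over 4 clusters, and overlapped in HOXB. At 4 h, HOXC and the sum over 4 clusters did not overlap DMSO either. In experiment 6211 the sum over 4 clusters was 524.4 ± 4.15 in DMSO and 532.7 ± 20.6 at 2 h, with overlapping libraries. Single clusters went in different directions there at 2 h, with HOXB 6.13% and HOXC 9.38% above DMSO, and HOXD at -7.95% and HOXA at -7.00% relative to it. The 2 h libraries did not overlap those in DMSO in HOXB, HOXC and HOXD, and overlapped in HOXA. The HOXA value rested on 1 library, with 155.5 and 126.4 CPM at 2 h against 153.5 and 149.65 in DMSO. HOXD at 0.5 h and HOXA at 1 h did not overlap DMSO either. At 2 h in experiment 6086, relative to DMSO, HOXA stood at 1.13%, HOXB at -1.03%, HOXC at 2.40% and HOXD at -4.07%, all with overlapping libraries. These sums carry no test, and with 2 libraries per group a lack of overlap alone does not show a change. How often other sets of regions separate in this way was not counted.

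**Figure D5:**
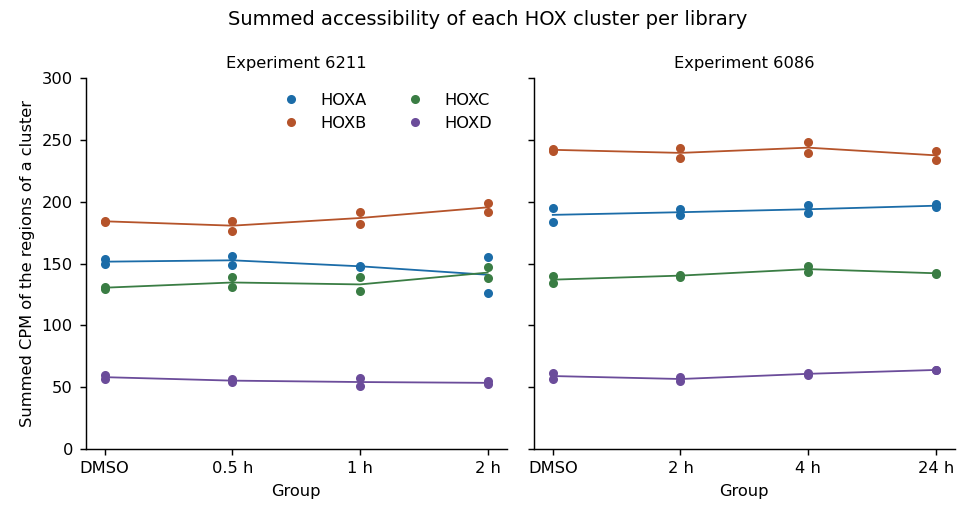
Summed CPM of the regions of each HOX cluster in every library, by group, for experiment 6211 on the left and 6086 on the right. Points are libraries and lines join group means. HOXB is highest and HOXD lowest in every group, and no group mean lies more than 9.38% from DMSO.

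The DNA around the clusters was counted in the same way. In the 250 kb on either side of each window, 14 of 55 regions passed at 24 h in experiment 6086 (25.5%, beside 32.2% of all regions), 11 lower and 3 higher. Beside HOXB 9 of 20 passed, all lower, beside HOXD 4 of 11, 2 lower and 2 higher, beside HOXC 1 of 21, higher, and beside HOXA 0 of 3. Within the windows the counts were 1 of 26 in HOXB, 1 of 5 in HOXD, 0 of 14 in HOXC and 0 of 18 in HOXA. In the nearest 100 kb on either side, 6 of 16 flank regions passed at 24 h (37.5%), all lower and all beside HOXB. The nearest flank region of HOXA lay 215.1 kb from its window, so HOXA added none to the 16. The difference between windows and flanks was not tested. At 2 h, 5 of 41 flank regions (12.2%) passed in experiment 6211, beside 6.89% of all regions, and 3 of 55 (5.45%) in experiment 6086, beside 5.22%, all of them lower.

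The deepest loss near a cluster lay 191.2 kb beyond the HOXD13 edge of the HOXD window. The region chr2:176748600-176748851 fell by 1.17 in log2 at 2 h (SE 0.14, edgeR adjusted p = 3.37e-07) and by 2.17 at 24 h (SE 0.16, adjusted p = 3.10e-13). Its counterpart in experiment 6211, chr2:176748520-176748920, fell by 1.07 at 2 h (SE 0.17, adjusted p = 0.000144). Beside HOXB, chr17:46879519-46880018, 59.5 kb beyond the HOXB13 edge, fell by 0.43 at 2 h (adjusted p = 0.000198) and by 0.81 at 24 h (adjusted p = 3.36e-10). Both flank regions were named after their values were seen. The regions next to each window edge had small values. The 8 outermost regions inside the windows had log2 fold changes of -0.11 to 0.19 at 24 h, none past the threshold. The 8 next regions outside, 8.67 to 215.2 kb away, had -0.25 to 0.18, also none past it. Other regions close to the HOXB window did pass at 24 h. Beyond the HOXB13 edge, chr17:46834771-46835438, 14.8 kb away, fell by 0.29 in log2 (edgeR adjusted p = 0.00301). Beyond the HOXB1 edge, chr17:46574563-46574770, 25.2 kb away, fell by 0.82 (adjusted p = 8.90e-06). These regions too were named after their values were seen.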

How the data were processed

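The members and the rules for naming regions were chosen with earlier results of these data known. The authors deposited 1 table of raw read counts per region for each experiment, and its coordinates are taken as hg19. Trimmomatic 0.32, Genrich 0.6.1, Bowtie2, DESeq2 and DiffBind appear in the submitters' processing notes, without order or settings. How duplicates and the transposase offset were treated was not stated in the sources used here. Log2 fold changes and adjusted p-values in the authors' deposited comparison tables were only set beside the values computed here.

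Counts were tested with edgeR 4.0.16 (TMM, filterByExpr, quasi-likelihood) in R 4.3.3, with 8 libraries of an experiment in 1 fit, 4 residual degrees of freedom and Benjamini-Hochberg adjustment over all 40844 or 56945 regions tested. Calls had an adjusted p under 0.05. The standard error is the log2 fold change divided by the square root of F. Scripts were tested on simulated data. TMM takes the bulk of regions as unchanged, so a uniform shift would not be seen. The chi-square per degree of freedom between replicates was 1.34 to 2.66, so none agreed within sampling noise. Regions named are those called, the 2 highest per cluster, the largest change at the last time (mean count 30 or more), and those at window edges. Regions were matched with bedtools 2.31.1. Alternatives were DESeq2 1.42.0, other scalings and filters, 2 groups only, a replicate block and leaving out each library. Cofactor and marker gene lists were not analysed here.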

Additional observations from a re-analysis of the deposited data

Results flagged for a closer look

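For 4 HOX regions of experiment 6086 the effects at 24 h and at 2 h differed from each other when tested directly with edgeR. The log2 difference, 24 h minus 2 h, was 0.85 at chr2:176998126-176998419 in HOXD, -0.36 at chr17:46703754-46704278 in HOXB, 0.18 at chr7:27200073-27200902 in HOXA and 0.18 at chr12:54411413-54412287 in HOXC. Both 24 h libraries lay above both 2 h libraries in HOXD, HOXA and HOXC and below them in HOXB. Because the 4 regions were chosen by the test of these same libraries, this separation adds no support. The HOXD difference held under all 12 alternatives run for it, at 0.74 to 0.94. The HOXB difference was lost on leaving out 2 h library A, and the HOXA and HOXC differences under 5 of 12 each.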

How the results depend on the processing

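Of 120 alternative values for the counts, sums and flank shares, 100 were labelled as staying with the main value and 20 as moved. A label of staying did not require an equal value. For 24 h against 2 h, for example, 5 calls with library size only, against 4, were labelled as staying. At 24 h the 2 calls became 4 (0 lower, 4 higher) with library size only, 4 (1 lower, 3 higher) with a loess offset, 1 with DESeq2, and 1 to 3 on leaving out a library. At 4 h the 1 call became 0 with DESeq2, 0 with only the 2 groups in the fit, and 0 to 1 on leaving out a library. At 2 h in experiment 6086 the 0 calls became up to 2, both higher, on leaving out a DMSO library (range 0 to 2). For 24 h against 2 h the 4 calls became 2 with DESeq2, 9 (5 lower, 4 higher) with only the 2 groups, and 1 to 4 on leaving out a library. For 2 h against 0.5 h in experiment 6211 the 0 calls became 1 without 2 h library A (range 0 to 1). The cause was not tested. The share of flank regions called at 2 h in experiment 6211 was 12.2% and became 7.14% with 100 kb flanks. At 24 h in experiment 6086 that share was 25.5% and became 37.5% with 100 kb flanks, which was labelled as staying. The summed CPM at 24 h, 640.7, became 646.7 with library size only.

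The labels number replicates and the columns carry the letters A and B, which could not be tied to those numbers. With the letter as a replicate block, 0 HOX regions passed at 4 h and 1 at 24 h. The correlation of the difference A minus B between groups ran from -0.05 to 0.21 in experiment 6211 and from -0.14 to 0.15 in experiment 6086, so the letters were not taken as pairs. With 2 libraries per group and a median of 175 reads per library in a HOX region of experiment 6086, the median standard error of a HOX log2 fold change at 24 h was 0.12.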

Other observations

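Of the 63 HOX regions of experiment 6086, 34 overlapped no HOX region of experiment 6211. They were narrower than the 29 that did, with a median width of 179.5 bp against 461, held fewer reads, with a median of 130.5 per library against 343.3, and were less open per kb in DMSO, with a median of 26.7 CPM per kb against 31.7. Of the 30 HOX regions of experiment 6211, 29 overlapped one of experiment 6086. Replicates of HOX regions in experiment 6086 differed at 24 h by a median of 0.09 in log2 CPM, against 0.08 over all regions, and at 2 h in experiment 6211 by 0.15 against 0.12.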
